A study of Mus with 8 samples.

Results

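The genes described here are 10 components of cytokine and growth hormone signalling through the JAK kinases in mouse preadipocytes. They are the transcription factors Stat3, Stat5a, Stat5b and Stat6, the feedback inhibitors Socs1, Socs2, Socs3 and Cish, and the receptor chains Il6st and Ghr. They were listed by name as components of the pathway, with earlier results of these data known. Their shares and medians beside all genes are therefore a description and not a test. All 10 are among the 24013 genes of the count table. All 10 had enough counts to be tested, among 13339 genes tested. The cells were 3T3-L1, a mouse line that turns into fat cells when it is induced with hormones. C cells carried a lentivirus with a scrambled shRNA and P cells a lentivirus with an shRNA against Prep1, a homeodomain transcription factor encoded by Pknox1. Both were selected in puromycin as infected pools of 1 cell line, and P cells carry a single Prep1 shRNA. RNA was sequenced at day −2, before induction, and at day 1, after the medium had been changed to 1 µM dexamethasone, 0.5 mM IBMX and 1 µg/ml insulin in 10% FBS. The paper's growth medium for these cells held BCS in place of FBS. No uninduced cells were sequenced at day 1. Induction here means day 1 against day −2, in which hormones, serum and time in culture cannot be told apart. Each of the 4 conditions had 2 biological replicas. Every p-value rests on a spread between replicas that was estimated over all 4 conditions together, with information shared across genes. A wide spread in 1 condition therefore enters every comparison, also those without that condition, and is averaged down in its own.

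Cytokine and growth hormone receptors of this class have no kinase of their own and signal through JAK kinases bound to them. The JAKs phosphorylate STAT proteins, which enter the nucleus and switch on genes, among them those of the SOCS family. SOCS proteins bind the receptors or the JAKs and damp the signal, so that their mRNA is often read as a record of recent signalling. In preadipocytes, gp130 receptors act mainly through STAT3, growth hormone acts mainly through STAT5A and STAT5B, and both routes are known to take part in the conversion to fat cells.

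The libraries held between 20428816 and 27614353 counts, and 3 counts in a library corresponded to between 0.107 and 0.160 CPM, a count divided by the TMM-scaled size of its library, a floor that covers counting error only. The replicas of P cells at day −2 stood apart from each other. Over 5600 well expressed genes, the SD of the log2 difference between replicas was 0.795 in this condition, against 0.121 to 0.261 in the other 3. Prep1 itself (Pknox1, NCBI gene 18771) had 28.1 and 26.5 CPM in C cells and 17.3 and 18.3 CPM in P cells at day −2, and 38.1 and 36.5 against 23.6 and 23.8 CPM at day 1. It was lower in every P library, by a log2 ratio of −0.62 at day −2 (SE 0.14, edgeR adjusted p = 0.0558) and −0.65 at day 1 (SE 0.14, edgeR adjusted p = 0.0575), both short of a ratio of 0.5. All 7 preadipocyte and fibroblast markers were detected in every library. Their summed level lay between 18199 and 62609 CPM in the P replicas at day −2 and between 12532 and 17290 CPM in the other libraries. In P replicas 1 and 2 at day −2, Col1a1 had 23560 and 4882 CPM and Col1a2 28501 and 7431 CPM. Dlk1 alone of the 7 had a lower mean in P than in C cells at day −2 (751 against 917 CPM). The 6 fat cell markers summed to 79.9 to 80.2 CPM in C cells and 229 to 243 CPM in P cells at day −2, and to 169 to 170 and 565 to 609 CPM at day 1. Most of each sum was Lpl, with 58.6 and 57.7 CPM in C cells and 183 and 200 CPM in P cells at day −2. Markers over 1 CPM in both replicas numbered 3 in C and 4 in P cells at day −2, and 2 and 6 at day 1. Fabp4 was lower at day 1 than at day −2 in C cells (log2 ratio −1.01, edgeR adjusted p = 0.0602), although the sum was higher. The sums for blood cell, endothelial, muscle and epithelial markers did not exceed 8.37 CPM in any library. The part of these differences in the results was not tested, and in such bulk samples fewer cells of a type and less RNA per cell cannot be told apart.

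Induction of C cells raised 7 of the 10 genes, Stat3, Stat5a, Socs2, Socs3, Cish, Il6st and Ghr, and lowered none. A call needed an edgeR adjusted p-value under 0.1 together with a ratio over 2 or under 0.5, which held for 20.4% of all genes tested, with 10.7% of all genes higher and 9.68% lower. The median log2 ratio was 1.63 over the 10 genes and −0.01 over all genes. In P cells, 4 of the 10 rose with induction, Socs2, Socs3, Il6st and Ghr, against 18.0% of all genes called (7.65% of all genes higher and 10.4% lower). The median log2 ratio was 0.54 over the 10 genes and 0.02 over all genes.

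Before induction, P cells had more Stat3, Cish and Il6st mRNA than C cells. These were 3 of the 10 genes, against 6.98% of all genes called (4.83% of all genes higher and 2.15% lower), and the median log2 ratio was 0.58 over the 10 genes and 0.01 over all genes. At day 1 only Socs1 was called among the 10, lower in P cells, against 4.06% of all genes called (1.83% of all genes higher and 2.23% lower). The median log2 ratio at day 1 was −0.37 over the 10 genes and 0.01 over all genes. Pairs of these comparisons share libraries, so that a high or low value in 1 condition enters 2 of them. The plots of levels and ratios show each gene.

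**Figure D1:**
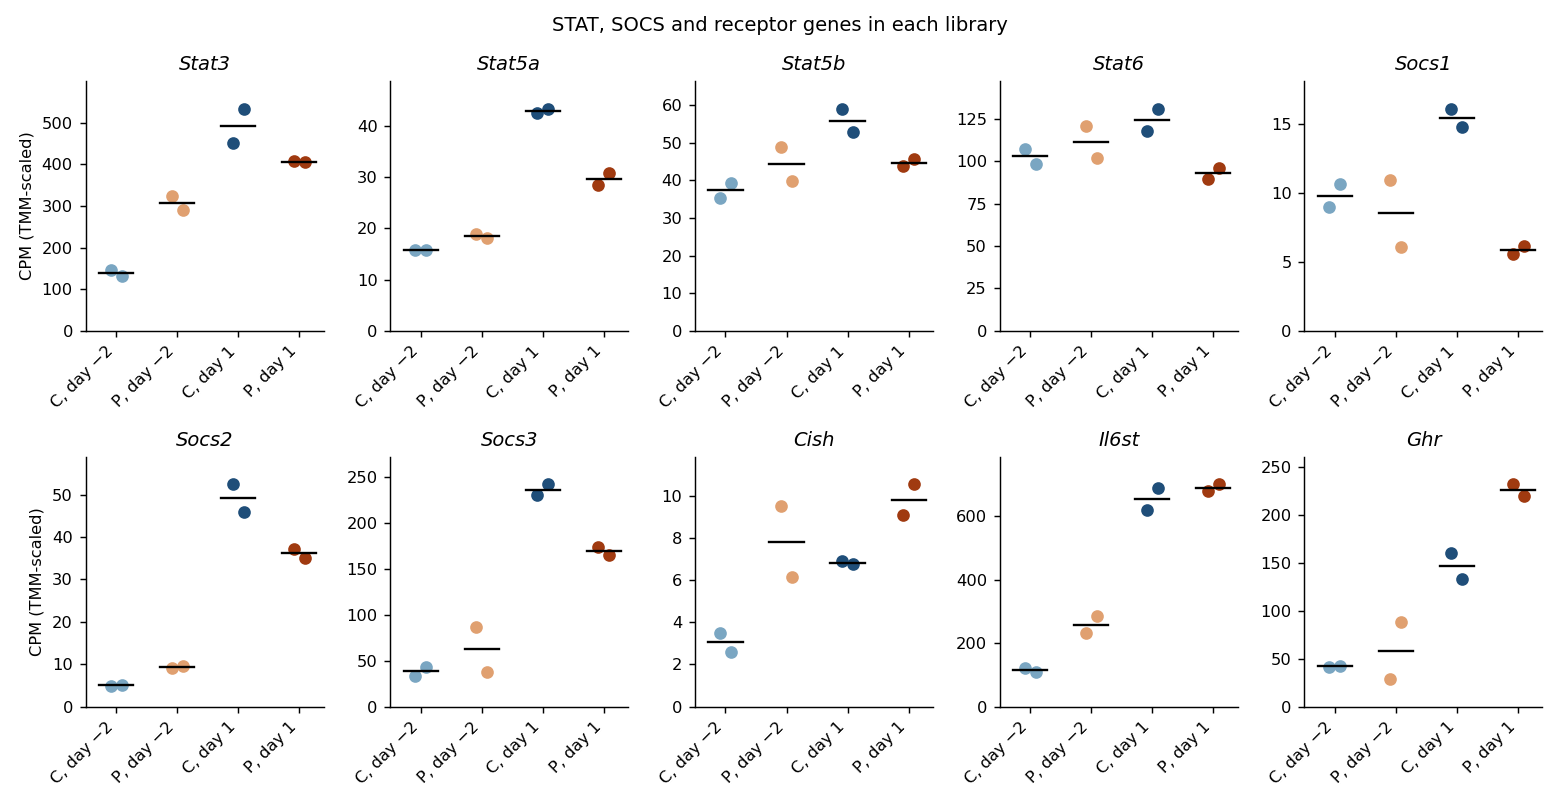
Level of each of the 10 genes in CPM on a linear axis from 0, with a point for each replica and a line at the mean of the 2 replicas, in C and P cells at day −2 and day 1. Il6st, Socs2 and Socs3 are far higher in all day 1 libraries than at day −2, and the P replicas at day −2 lie far apart for Socs3 and Ghr.

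**Figure D2:**
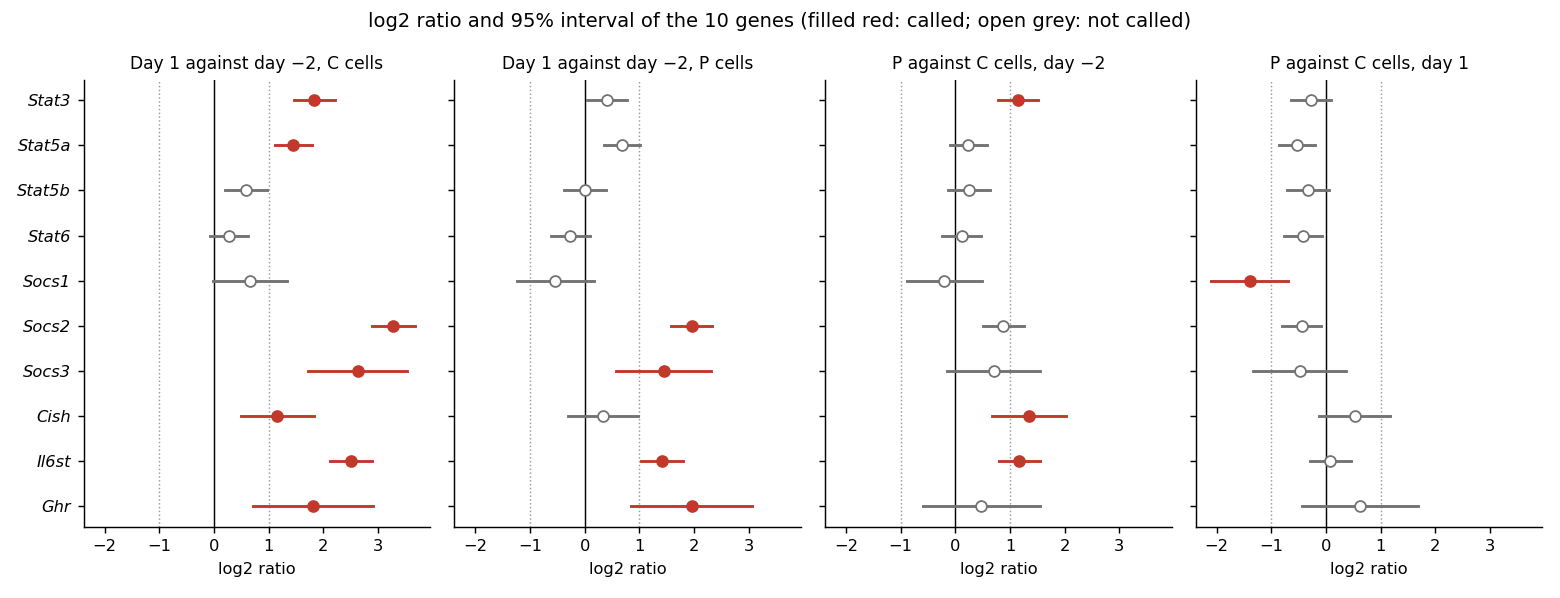
Log2 ratio (points) with its 95% interval (bars) for the 10 genes in the 4 comparisons, filled red where called, with dotted lines at the ratios of 2 and 0.5. Called genes number 7, 4 and 3 to the right of 0 in the first 3 panels and 1, Socs1, to the left of 0 in the last.

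Il6st (NCBI gene 16195) encodes gp130, the signalling chain shared by the receptors for IL-6, LIF, oncostatin M and related cytokines. Replicas 1 and 2 had 120 and 110 CPM in C cells and 233 and 284 CPM in P cells at day −2, and 620 and 688 CPM in C cells and 679 and 700 CPM in P cells at day 1. Both P replicas lay above both C replicas at day −2, while the ranges overlapped at day 1. Il6st was 2.24-fold higher in P cells at day −2 (log2 ratio 1.17, SE 0.16, edgeR adjusted p = 0.0100). Induction raised it 5.68-fold in C cells (log2 ratio 2.51, SE 0.17, edgeR adjusted p = 1.9e-04) and 2.67-fold in P cells (log2 ratio 1.42, SE 0.16, edgeR adjusted p = 0.00173). At day 1 the P replicas differed from the C replicas by a log2 ratio of 0.08, with a 95% interval from −0.29 to 0.45 (edgeR adjusted p = 0.905), and it was −0.03 without replica 1 of C cells at day 1. The call at day −2 was lost without replica 1 of C cells at day −2 (log2 ratio 1.23, edgeR adjusted p = 0.122) or replica 2 (1.10, edgeR adjusted p = 0.157). With library totals in place of TMM the ratio at day −2 fell just under 2, with a log2 ratio of 0.99, where the median of all genes was −0.18.

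Ghr (NCBI gene 14600) encodes the growth hormone receptor, which signals through JAK2 and STAT5. It had 41.2 and 42.8 CPM in C cells at day −2, 160 and 133 CPM in C cells at day 1, and 232 and 220 CPM in P cells at day 1. The P replicas at day −2 had 28.4 and 87.8 CPM, 1 below and 1 above both C replicas. Induction raised Ghr 3.50-fold in C cells (log2 ratio 1.81, SE 0.46, edgeR adjusted p = 0.0298) and 3.88-fold in P cells (log2 ratio 1.96, SE 0.46, edgeR adjusted p = 0.0276). At day 1 both P replicas lay above both C replicas, but the log2 ratio of 0.62 was not called (95% interval −0.45 to 1.69, edgeR adjusted p = 0.617). The comparison at day −2 turned on which P replica was kept. Its log2 ratio was 0.47 (edgeR adjusted p = 0.509), 1.07 without replica 1 of P cells at day −2 and −0.57 without replica 2. The induction call in C cells was lost without replica 1 of C cells at day −2 (log2 ratio 1.79, edgeR adjusted p = 0.168), replica 2 (1.84, 0.165) or replica 1 of C cells at day 1 (1.70, 0.131). That in P cells was lost without replica 1 (1.92, 0.127) or replica 2 (2.00, 0.122) of P cells at day 1, and its log2 ratio was 1.35 without replica 1 and 3.00 without replica 2 of P cells at day −2.

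Stat3 (NCBI gene 20848) encodes the main STAT activated by gp130 receptors. It had 145 and 131 CPM in C cells and 323 and 290 CPM in P cells at day −2. At day 1 it had 451 and 533 CPM in C cells and 408 and 404 CPM in P cells. The 2 C replicas at day −2 were the lowest of the 8 libraries, and both P replicas lay above C cells at day −2 and below C cells at day 1. Stat3 was 2.22-fold higher in P cells at day −2 (log2 ratio 1.15, SE 0.15, edgeR adjusted p = 0.00942). Induction raised it 3.56-fold in C cells (log2 ratio 1.83, SE 0.16, edgeR adjusted p = 4.46e-04), and in P cells the log2 ratio was 0.41 (SE 0.15, edgeR adjusted p = 0.103). The difference between P and C cells at day 1 was not called (log2 ratio −0.28, 95% interval −0.64 to 0.08, edgeR adjusted p = 0.459). The call at day −2 was lost without replica 1 of C cells at day −2 (log2 ratio 1.23, edgeR adjusted p = 0.110) or replica 2 (1.07, edgeR adjusted p = 0.149), and the log2 ratio was 0.96 with library totals.

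Stat5a (NCBI gene 20850) and Stat5b (NCBI gene 20851), neighbours of Stat3 in the genome, encode near-identical factors of growth hormone and prolactin signalling. Stat5a had 15.8 and 15.8 CPM in C cells and 19.0 and 18.2 CPM in P cells at day −2, and 42.6 and 43.4 CPM in C cells and 28.6 and 30.9 CPM in P cells at day 1. Its day 1 libraries were all above its day −2 libraries. Stat5a rose 2.73-fold with induction in C cells (log2 ratio 1.45, SE 0.14, edgeR adjusted p = 7.73e-04). In P cells its log2 ratio of 0.68 had an edgeR adjusted p = 0.0172 but stayed under a ratio of 2. Stat5b had 35.4 and 39.3 CPM in C cells and 48.9 and 39.9 CPM in P cells at day −2, and 59.1 and 52.8 CPM in C cells and 43.8 and 45.7 CPM in P cells at day 1. C cells at day 1 were the highest libraries of Stat5b. Its log2 ratio with induction was 0.58 in C cells (edgeR adjusted p = 0.0392, under a ratio of 2) and 0.01 in P cells (95% interval −0.37 to 0.40, edgeR adjusted p = 0.965). How reads that match both genes were counted is not given in the sources used here, so the split between Stat5a and Stat5b is uncertain.

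Stat6 (NCBI gene 20852) encodes the STAT of the IL-4 and IL-13 receptors. It had 107 and 98.6 CPM in C cells and 121 and 102 CPM in P cells at day −2, and 118 and 131 CPM in C cells and 89.7 and 96.2 CPM in P cells at day 1. It varied least of the 10 genes, with a range of 0.42 between condition means on the log2 CPM scale, and it was called in none of the comparisons. Its log2 ratios were 0.27 with induction in C cells, −0.26 with induction in P cells, 0.11 between P and C cells at day −2 and −0.42 at day 1, with edgeR adjusted p-values between 0.219 and 0.623.

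Socs2 (NCBI gene 216233) encodes an inhibitor of growth hormone receptor signalling that is itself induced by STAT5. It had 4.94 and 5.18 CPM in C cells and 9.16 and 9.45 CPM in P cells at day −2. At day 1 it had 52.4 and 46.0 CPM in C cells and 37.3 and 35.0 CPM in P cells. The 4 conditions did not overlap, with P above C cells at day −2 and below C cells at day 1. Of the 10 genes it had the widest range between condition means, 3.26 on the log2 CPM scale. Induction raised Socs2 9.71-fold in C cells (log2 ratio 3.28, SE 0.16, edgeR adjusted p = 7.84e-05) and 3.88-fold in P cells (log2 ratio 1.96, SE 0.16, edgeR adjusted p = 5.22e-04). Before induction Socs2 was 1.84-fold higher in P cells, under the ratio of 2 (log2 ratio 0.88, SE 0.16, edgeR adjusted p = 0.0255), and the difference at day 1 was not called (log2 ratio −0.44, edgeR adjusted p = 0.190).

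Socs3 (NCBI gene 12702) encodes the inhibitor that binds gp130 and JAKs and is induced by STAT3. It had 33.1 and 43.5 CPM in C cells and 86.6 and 37.7 CPM in P cells at day −2, and 231 and 242 CPM in C cells and 173 and 165 CPM in P cells at day 1. All day 1 libraries were above all day −2 libraries, while at day −2 only replica 1 of the P cells was above both C replicas. Induction raised Socs3 6.17-fold in C cells (log2 ratio 2.62, SE 0.38, edgeR adjusted p = 0.00360) and 2.72-fold in P cells (log2 ratio 1.45, SE 0.36, edgeR adjusted p = 0.0337). The P and C cells were not called different at day −2 (log2 ratio 0.70, edgeR adjusted p = 0.269) or at day 1 (−0.48, edgeR adjusted p = 0.628). At day −2 the log2 ratio was −0.01 without replica 1 of the P cells and 1.17 without replica 2. The induction call in P cells was lost without replica 2 at day −2 (log2 ratio 0.97) and without replica 1 (1.42) or replica 2 (1.49) at day 1. Its log2 ratio was 2.16 without replica 1 at day −2.

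Cish (NCBI gene 12700) encodes CIS, an inhibitor that STAT5 induces and that competes with it for receptor binding. It had 3.51 and 2.61 CPM in C cells and 9.53 and 6.14 CPM in P cells at day −2, and 6.91 and 6.77 CPM in C cells and 9.10 and 10.6 CPM in P cells at day 1. The 2 C replicas at day −2 were the lowest libraries, and the P cells overlapped between the days. Cish was 2.55-fold higher in P cells at day −2 (log2 ratio 1.35, SE 0.28, edgeR adjusted p = 0.0440) and rose 2.23-fold with induction in C cells (log2 ratio 1.16, SE 0.28, edgeR adjusted p = 0.0253). Its log2 ratio with induction in P cells was 0.33 (95% interval −0.31 to 0.98, edgeR adjusted p = 0.411). The call at day −2 was lost without any 1 of the 4 day 1 libraries (log2 ratio 1.33 to 1.35, edgeR adjusted p = 0.104 to 0.113) and without replica 1 (1.58, 0.198) or replica 2 (1.15, 0.340) of C cells at day −2. The induction call in C cells was lost without replica 2 of C cells at day −2 (log2 ratio 0.97, edgeR adjusted p = 0.176) and without replica 1 (1.17, 0.102) or replica 2 (1.18, 0.101) at day 1.

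Socs1 (NCBI gene 12703) encodes an inhibitor of JAKs best known from interferon signalling. It had 8.97 and 10.6 CPM in C cells and 11.0 and 6.10 CPM in P cells at day −2, and 16.1 and 14.8 CPM in C cells and 5.56 and 6.16 CPM in P cells at day 1. C cells at day 1 were the highest libraries, and P cells overlapped between the days. At day 1 Socs1 was 2.63-fold lower in P than in C cells (log2 ratio −1.40, SE 0.30, edgeR adjusted p = 0.0549). Neither induction response was called, with log2 ratios of 0.66 in C cells (edgeR adjusted p = 0.139) and −0.54 in P cells (edgeR adjusted p = 0.231). The call at day 1 was lost without any 1 of the libraries other than the P cells at day −2 (log2 ratio −1.48 to −1.32, edgeR adjusted p = 0.141 to 0.399).

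The responses of P and C cells to induction were compared in an interaction test, called at an edgeR adjusted p-value under 0.1 whatever the size of the difference. Stat3, Socs2 and Il6st responded less in P than in C cells, 3 of the 10 genes, against 2.37% of all genes called (0.435% of all genes higher and 1.93% lower). The difference between the log2 ratios was −1.43 for Stat3 (SE 0.22, edgeR adjusted p = 0.0381), −1.32 for Socs2 (SE 0.22, edgeR adjusted p = 0.0462) and −1.09 for Il6st (SE 0.22, edgeR adjusted p = 0.0870). Each of the 3 genes had a P level at day −2 above that of C cells. The gap between P and C cells at day −2 is subtracted in the interaction, so it lowers the value by construction. The difference was below 0 for 9 of the 10 genes, with a median of −0.96 against −0.01 over all genes, and the exception was Ghr, at 0.15 (95% interval −1.36 to 1.66). It was not called for Stat5a (−0.77, edgeR adjusted p = 0.155), Socs1 (−1.19, 0.273) or Socs3 (−1.18, 0.352), whose intervals of −1.24 to −0.30, −2.17 to −0.21 and −2.38 to 0.03 hold large as well as small differences. The 3 interaction calls were lost without any 1 library other than the P replicas at day −2, with differences of −1.56 to −1.30 for Stat3 (edgeR adjusted p = 0.113 to 0.304), −1.41 to −1.24 for Socs2 (0.195 to 0.323) and −1.18 to −1.01 for Il6st (0.267 to 0.511). Leaving out either P replica at day −2 takes the pair with the widest spread out of the estimate, and interaction calls then rose over all genes too. That the 3 calls remained without either of these replicas therefore adds no support to them. The median difference over the 10 genes was −0.63 without replica 1 of P cells at day −2 and −1.02 without replica 2.

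**Figure D3:**
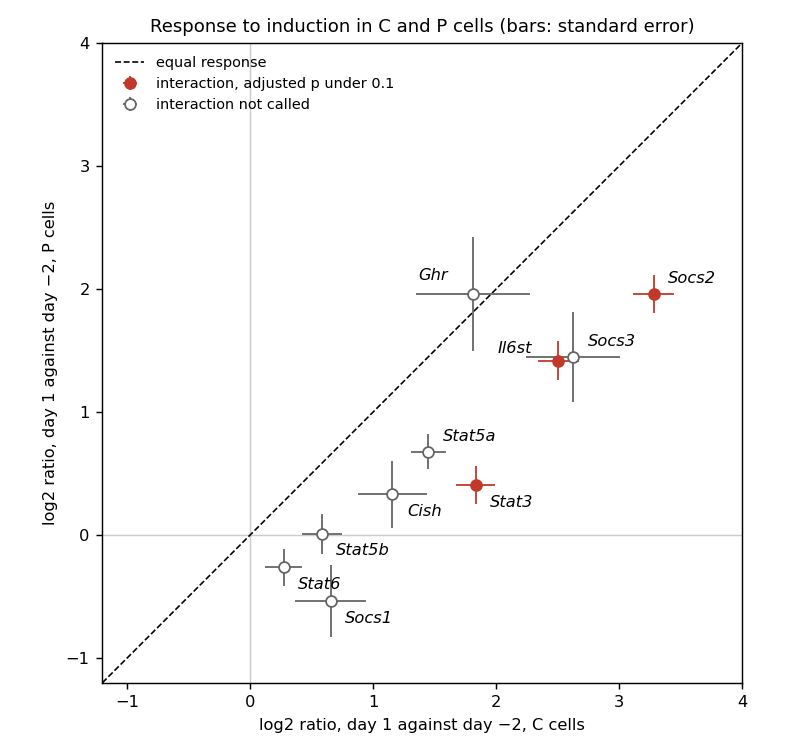
Log2 ratio of day 1 to day −2 in C cells (horizontal) and in P cells (vertical) for the 10 genes, with standard errors as bars, a dashed line at equal responses and filled red points where the interaction was called. All genes but Ghr lie below the dashed line, and Stat3, Socs2 and Il6st are filled.

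The other genes of the pathway were taken from 10 lists of 63 genes written from textbook knowledge, also with earlier results of these data known. Of these, 55 were tested and 32 were called in some comparison or in the interaction, as were 31.0% of all genes tested. The other 8, Stat4, Osm, Il27, Csf2ra, Icam1, Fgg, Igfals and Onecut1, had at most 7 counts in any library. Induction called 18 of the 55 higher and 6 lower in C cells (all genes tested, 10.7% higher and 9.68% lower), and 7 higher and 11 lower in P cells (all genes, 7.65% and 10.4%). P against C cells called 6 higher and 2 lower at day −2 (all genes, 4.83% and 2.15%), and 1 higher and 5 lower at day 1 (all genes, 1.83% and 2.23%). The median log2 ratios over the 55 genes were 0.19, 0.10, 0.08 and −0.31 in this order. Leaving out each library in turn kept 13 of the 24 calls in C cells, 11 of the 18 in P cells, 3 of the 8 at day −2, which were Stat2, Il6ra and Hp, and none of the 6 at day 1. The 5 lower calls at day 1 were Stat2 (log2 ratio −1.09, edgeR adjusted p = 0.0310), Lif (−1.88, 0.0754), Il4ra (−1.31, 0.0444), Timp1 (−1.42, 0.0251) and Aox1, described with its list, and each was lost without at least 1 of the day 1 libraries.

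Among the receptor chains that pair with gp130, 3 of 5 rose with induction in C cells, Il11ra1 among them, and 2 of 5 in P cells, Cntfr among them. Over all genes tested, 10.7% rose in C cells and 7.65% in P cells. Lifr, the LIF receptor, had 10.4 and 10.8 CPM in C cells and 27.4 and 40.9 CPM in P cells at day −2, and 79.2 and 79.7 against 68.0 and 68.6 CPM at day 1, an order like that of Il6st at day −2. It was higher in P cells at day −2 (log2 ratio 1.69, SE 0.21, edgeR adjusted p = 0.00671), a call lost without either C replica at day −2. Il6ra, the chain that gives gp130 its IL-6 specificity, went the other way. It had 15.5 and 14.9 CPM in C cells and 2.88 and 3.00 CPM in P cells at day −2, and 18.0 and 23.0 against 11.8 and 10.7 CPM at day 1. It was lower in P cells at day −2 (log2 ratio −2.37, SE 0.20, edgeR adjusted p = 0.00231) and rose with induction in P cells (log2 ratio 1.93, SE 0.20, edgeR adjusted p = 0.00129). Osmr, the oncostatin M receptor, rose in C cells by a log2 ratio of 2.55 (edgeR adjusted p = 0.0122), a call lost without replica 1 of C cells at day −2. Il11ra1 and Cntfr were called too, but Il11ra1 has a near-identical copy whose reads may have been split. Cntfr, also the 1 gene called higher in P than in C cells at day 1, had at most 4 counts in each day −2 library. In C cells at day 1 it had 2 and 1 counts.

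Of the 6 gp130 ligands tested, Lif was lower after induction in both cells. It had 12.9 and 14.4 CPM in C cells and 11.7 and 4.67 CPM in P cells at day −2, and 4.30 and 4.78 against 1.20 and 1.26 CPM at day 1. Its log2 ratio was −1.59 in C cells (edgeR adjusted p = 0.0290), a call lost without any 1 of the C libraries, and −2.72 in P cells (edgeR adjusted p = 0.00733). The value in P cells remained called without each library but was −1.93 without replica 1 and −3.23 without replica 2 of P cells at day −2. Il6 had 0.996 and 0.665 CPM in C cells and 1.22 and 6.35 CPM in P cells at day −2, and 4.22 and 2.91 against 2.86 and 2.43 CPM at day 1. It was called in C cells only (log2 ratio 2.09, SE 0.73, edgeR adjusted p = 0.0783), a call lost without any 1 of the C libraries or of the P libraries at day 1. Il11 and Ctf1 were lower after induction in P cells, by log2 ratios of −1.43 (edgeR adjusted p = 0.0135) and −1.21 (edgeR adjusted p = 0.0415), calls lost without replica 1 of P cells at day 1 and, for Ctf1, also without replica 2 or replica 1 of P cells at day −2.

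Of the 4 JAK kinases, Jak2, the kinase of the growth hormone receptor, and Jak3 rose with induction in C cells, by log2 ratios of 1.26 (edgeR adjusted p = 0.0130) and 1.20 (edgeR adjusted p = 0.0279). Over all genes tested, 10.7% rose in C cells. Jak2 lost its call without replica 2 of C cells at day −2, and Jak3 without either C replica at day −2 or replica 2 of C cells at day 1. Stat2, which carries interferon signals, was already higher in P cells before induction. Stat2 had 14.6 and 16.4 CPM in C cells and 57.2 and 42.6 CPM in P cells at day −2, and 105 and 123 against 51.5 and 55.7 CPM at day 1. Against C cells at day −2, the P cells had a log2 ratio of 1.69 (SE 0.20, edgeR adjusted p = 0.00550). Induction raised Stat2 in C cells by a log2 ratio of 2.88 (SE 0.20, edgeR adjusted p = 2.34e-04).

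Of the 13 negative regulators beyond the 4 described, 2 were called in some comparison or in the interaction, against 31.0% of all genes tested. Socs5 was lower after induction, by a log2 ratio of −1.01 in C cells (edgeR adjusted p = 0.00633) and −1.16 in P cells (edgeR adjusted p = 0.00479), close to the ratio of 0.5. The first call was lost without replica 2 of C cells at day −2 or at day 1, replica 1 of P cells at day −2 or either P replica at day 1, with log2 ratios down to −0.93, and the second without replica 2 of P cells at day −2. Ptpn6, the phosphatase SHP-1, had 7.69 and 6.16 CPM in C cells and 2.72 and 2.03 CPM in P cells at day −2, and fell with induction in C cells (log2 ratio −2.00, SE 0.28, edgeR adjusted p = 0.00332) and in P cells (−1.55, SE 0.30, edgeR adjusted p = 0.0142), the latter call lost without either P replica at day 1. It was lower in P cells at day −2 (log2 ratio −1.55, edgeR adjusted p = 0.0261), a call lost without either C replica at day −2. Among receptors of the growth hormone class, Epor, the erythropoietin receptor, was lower after induction in C cells (log2 ratio −1.69, edgeR adjusted p = 0.0305, lost without any 1 of the C libraries) and in P cells (−1.99, edgeR adjusted p = 0.0210, lost without replica 1 of P cells at day 1, and −1.33 without replica 1 at day −2). Csf2rb was called higher with induction in C cells, with 35 and 29 counts at day 1, but had at most 3 counts in each day −2 library. Its call was lost without replica 2 of C cells at day −2. Of the IL-4 and IL-13 receptor chains, Il4ra had 43.5 and 40.8 CPM in C cells and 51.4 and 30.3 CPM in P cells at day −2, and 31.9 and 36.5 against 13.2 and 14.3 CPM at day 1. It fell with induction in P cells (log2 ratio −1.57, SE 0.26, edgeR adjusted p = 0.00764). Il13ra1 was called higher in C cells only (log2 ratio 1.51, edgeR adjusted p = 0.0793), a call lost without any 1 of the C libraries or of the P libraries at day 1.

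Of the 13 textbook targets of STAT3 tested, 8 rose and 1 fell with induction in C cells, and 4 rose and 3 fell in P cells. Over all genes tested, 10.7% rose and 9.68% fell in C cells, and 7.65% rose and 10.4% fell in P cells. These genes also have other regulators, glucocorticoid among them for several. The acute phase genes had the largest range. Lcn2 had 0.159 and 0.177 CPM in C cells and 0.320 and 0.678 CPM in P cells at day −2, and 179 and 136 against 95.8 and 103 CPM at day 1. Hp, which encodes haptoglobin, had 0.199 and 0.133 CPM in C cells and 3.67 and 3.21 CPM in P cells at day −2, and 16.7 and 17.6 against 12.1 and 10.6 CPM at day 1. Saa3 had 1 and 3 counts in the C libraries at day −2 and 10.8 and 11.8 CPM in them at day 1. With so few counts in C cells at day −2, the ratios of these 3 genes are poorly determined, but their day 1 libraries were all above their day −2 libraries. Cebpd, a transcription factor of early adipogenesis, had 6.65 and 9.04 CPM in C cells and 64.5 and 32.9 CPM in P cells at day −2, and 66.5 and 61.2 against 71.4 and 65.7 CPM at day 1. It was higher in P cells at day −2 (log2 ratio 2.63, SE 0.34, edgeR adjusted p = 0.00819), a call lost without replica 1 of C cells at day −2. Bcl3, Bcl6 and Cebpb rose in C cells by log2 ratios of 2.04, 1.46 and 1.62 (edgeR adjusted p = 0.00208, 7.51e-04 and 0.00352). Bcl6 also rose in P cells (log2 ratio 1.47, edgeR adjusted p = 0.00105). Cebpb was higher in P cells at day −2 (log2 ratio 1.08, edgeR adjusted p = 0.0453). This call was lost without any 1 library other than replica 2 of P cells at day −2, over log2 ratios of 0.75 to 1.35. The paper, by RNA-seq and qPCR, reports no significant change of Cebpb with Prep1 down-regulation. The chemokine gene Ccl2 fell in both cells, by log2 ratios of −3.29 in C cells (edgeR adjusted p = 0.00464, −3.89 without replica 1 at day 1) and −3.74 in P cells (edgeR adjusted p = 0.00401, −2.97 without replica 2 at day −2). Junb rose in C cells (log2 ratio 1.64, edgeR adjusted p = 0.0128), a call lost without replica 2 of C cells at day −2. Timp1 fell in P cells (log2 ratio −1.65, edgeR adjusted p = 0.00434), as did Pim1 (−1.13, edgeR adjusted p = 0.0277), whose call was lost without replica 1 of P cells at day −2 or either P replica at day 1.

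Of the 7 textbook targets of STAT5 tested, 2 rose and 1 fell in C cells, and 2 rose and 2 fell in P cells, where the shares over all genes were 20.4% called in C cells and 18.0% in P cells. Bcl6, which rose in both cells, and Pim1, which fell in P cells, were also counted among the targets of STAT3. Ccnd1, which encodes cyclin D1, had 769 and 700 CPM in C cells and 720 and 484 CPM in P cells at day −2, and 80.9 and 84.8 against 129 and 120 CPM at day 1. It fell in both, by log2 ratios of −3.15 in C cells (edgeR adjusted p = 2.34e-04) and −2.27 in P cells (edgeR adjusted p = 9.04e-04). Pparg, the fat cell regulator, rose in P cells (log2 ratio 1.89, SE 0.27, edgeR adjusted p = 0.00433). In C cells its log2 ratio was 0.96 (edgeR adjusted p = 0.0369, under a ratio of 2). The interaction was not called for Pparg (0.93, edgeR adjusted p = 0.324). Aox1 had 6.58 and 7.0 CPM in C cells and 5.91 and 7.71 CPM in P cells at day −2, and 16.9 and 19.8 against 5.73 and 5.65 CPM at day 1. It rose in C cells (log2 ratio 1.44, edgeR adjusted p = 0.00347) and was lower in P than in C cells at day 1 (log2 ratio −1.69, edgeR adjusted p = 0.00935), a call lost without replica 2 of C cells or either P replica at day 1.

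**Figure D4:**
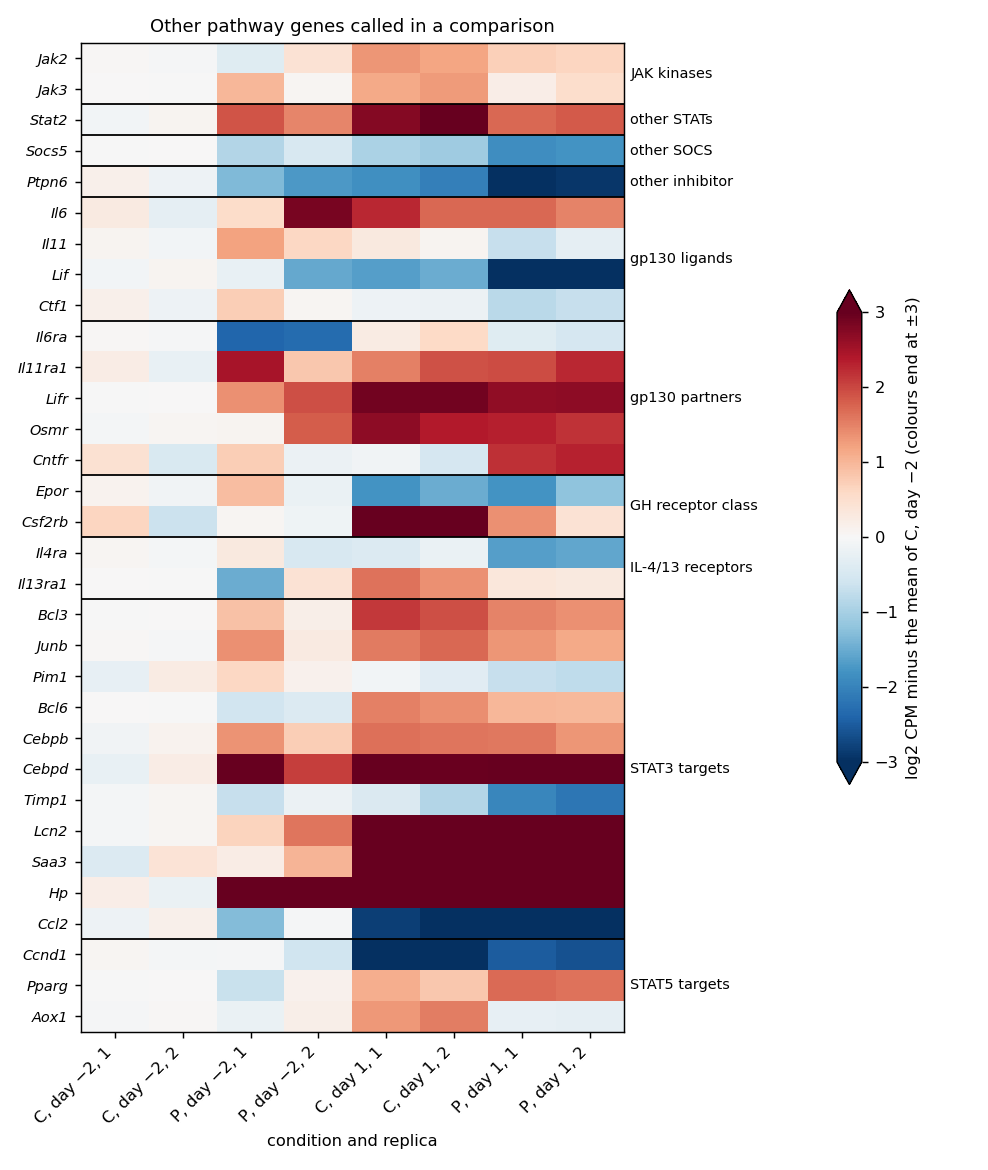
Log2 CPM of the 32 other pathway genes called in some comparison (rows, grouped by role) in the 8 libraries (columns), minus the gene's mean in C cells at day −2, with colours ending at differences of 3. Stat2, Lifr, Cebpd and Hp are red in both P replicas at day −2 as well as at day 1, and Il6ra is dark blue in the P replicas at day −2 only.

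The patterns of the 3 genes with the widest range were set beside those of 10903 genes with a mean of at least 50 counts, by Pearson's r of log2 CPM over the 8 libraries. The genes most like Socs2 were Agt (r = 0.996), Sdf2 (r = 0.995) and Pde4d (r = 0.995). Those most like Socs3 were Fam110b (r = 0.993), Sufu (r = 0.990) and Mapkbp1 (r = 0.990). Those most like Il6st were Ctsb (r = 0.999), Vldlr (r = 0.996) and Serhl (r = 0.995). With 8 libraries in 4 conditions such values are common, and r was over 0.95 for 303, 243 and 229 genes with Socs2, Socs3 and Il6st.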

How the data were processed

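RNA-seq was performed on the Ion Torrent system. Per the paper's methods and the submitters' processing notes, the authors removed artifacts with the FASTX-Toolkit, aligned the reads to mm9 with TopHat2 2.0.9 and counted them per gene against the refGene annotation. The deposited values are raw counts for 24013 NCBI gene IDs in 8 libraries. Treatment of multiply mapping reads and of strand is not given in the sources used here. A RefSeq table of the later build GRCm38.p6 supplied symbols for 23929 IDs and the order of neighbouring genes, and nothing else. No sequence is printed.

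The tests were run with edgeR 4.0.16 in R 4.3.3 (filterByExpr, TMM, prior count 2, quasi-likelihood test, 1 mean per condition, all 8 libraries), which left 13339 genes. P-values were two-sided and Benjamini-Hochberg adjusted over all of them. Genes were called at an adjusted p under 0.1, the study's threshold, and, outside the interaction, a ratio over 2 or under 0.5. Standard errors were derived from the F statistic, with intervals at the 95% level. The script was tested on simulated data. A further 3 pathway genes were dropped from the lists and are not reported here. Members and lists were chosen with earlier results of these data known. The genes named were all 10 members, Pknox1, the list genes called in any comparison and, for the 3 members with the widest range, the 3 genes with the most similar pattern. The replicas of every condition differed by more than counting noise. Alternatives were DESeq2 1.42.0, its size factors, library totals, 2 other filters on low counts (none, and at least 10 counts in every library), only the libraries compared, a replicate block, an adjusted p under 0.05, the removal of the ratio threshold, and 1 library left out at a time. A condition left with 1 library was assumed to vary like the others.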

Additional observations from a re-analysis of the deposited data

Results flagged for a closer look

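Induction acted differently in P cells than in C cells for 9 genes among the 10 members and 55 other pathway genes tested, against 2.37% of all genes, by the test of the interaction (edgeR's quasi-likelihood test, adjusted p under 0.1). Among the 10 members these were Stat3, with a difference between log2 ratios of −1.43, Socs2, with −1.32, and Il6st, with −1.09. Among the other pathway genes, the difference was −2.77 for Stat2 (SE 0.27, edgeR adjusted p = 0.00939) and −1.91 for Lifr (SE 0.29, edgeR adjusted p = 0.0374). It was −2.53 for Cebpd (SE 0.45, edgeR adjusted p = 0.0617) and −1.70 for Aox1 (SE 0.29, edgeR adjusted p = 0.0511). For Hp it was −4.91 (SE 0.35, edgeR adjusted p = 0.00399), a value that rests on 5 and 3 counts in C cells at day −2. Il6ra was the only one of the 9 with a larger response in P cells, by 1.51 (SE 0.27, edgeR adjusted p = 0.0616). Without each library in turn, the difference remained called for Hp alone and was lost at least once for the other 8. Stat2 lost it without replica 1 of C cells at day −2 or replica 1 of P cells at day 1, and the rest without any 1 of the 6 libraries other than the P replicas at day −2. With the replicate block, the difference was called for Stat2, Lifr and Hp, and for 0 of the members.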

How the results depend on the processing

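Over the 10 members, 660 of the recomputed values kept their direction and call, 58 lost the call, 11 gained it and 11 changed sign. The 7 calls of induction in C cells remained under every alternative that kept all libraries, and 5 to 7 remained without each library. With library totals, the members called at day −2 dropped to 1 (Cish) and those with an interaction to 1 (Stat3). This scaling put the median of all genes in the interaction at a log2 value of 0.29, and moved the share of calls that were higher from 42.4% to 54.5% for induction in P cells, from 69.2% to 55.4% at day −2 and from 18.4% to 31.6% in the interaction. With only the libraries compared, 0 members were called at day −2 and 2 by induction in P cells. Calls fell over all genes too, to 81 of 12725 tested at day −2 and 1213 of 12670 by induction in P cells. With all libraries these were 931 and 2406 of 13339. At an adjusted p under 0.05, 0 were called at day 1, where Socs1 stood at 0.0549. The labels do not say whether a replica number marks a shared culture or day. Correlations between same-numbered deviations ran from −0.36 to 0.21, which cannot settle whether the libraries are paired. With the replicate block, 0 members were called at day 1 (Socs1, edgeR adjusted p = 0.117) and 0 in the interaction (Stat3, 0.117), against 7, 4 and 3 in the other comparisons. A block with the day 1 P numbers crossed, chosen after seeing the data, also left 0 in the interaction. Leaving out 1 library lost member calls at least once in every comparison and in the interaction. Without replica 2 of P cells at day −2, the pair with the widest spread leaves the estimate of the spread, and calls rose over all genes. The median over the members then ran from 0.50 to 0.68 for induction in P cells and from 0.48 to 0.70 at day −2, over all libraries left out. It ran from −0.40 to −0.33 at day 1 and from −1.03 to −0.63 in the interaction. The sign changed for Stat5b by induction in P cells (−0.00726 with DESeq2, −0.0106 with its size factors, −0.12 to 0.16 without 1 library), for Stat6 at day −2 (−0.0838 with library totals, −0.00384 to 0.23 without 1 library) and, without 1 library, for Socs1 (−0.67 to 0.16), Socs3 (−0.0129 to 1.17) and Ghr (−0.57 to 1.07) at day −2, Ghr in the interaction (−0.48 to 1.19) and Il6st at day 1 (−0.0270 to 0.14). The library whose removal changed the sign was replica 1 of C cells at day 1 for Il6st, replica 2 of P cells at either day for Stat5b, and a P replica at day −2 for the others. The cause of these changes was not tested. Depth was least for Cish and Socs1, the members with the fewest counts.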
